A study of Mus musculus with 12 samples.

Results

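The comparison described here is that of swimming alone: the colon of mice that swam and received neither azoxymethane (AOM, a carcinogen) nor dextran sulfate sodium (DSS, an irritant of the colon) against the colon of mice that received neither and did not swim. It holds 6 of the 12 libraries of the series, the 3 of the Ctrl_Swim group (numbered 2, 3 and 4) and the 3 of the Ctrl group (numbered 1, 2 and 3), chosen by their labels. All mice were male C57BL/6 mice, 4 weeks old when bought, and their age at collection is not given in the sources used here. Ctrl_Swim mice swam for up to 90 min per day, and Ctrl mice were put into shallow warm water in the same kind of container. By the paper, daily swimming began 2 months ahead of the experiment and went on to its end. Both groups drank plain water and carried no transgene. The study kept 5 mice in each of these groups, of which 3 are represented here with 1 library each, so that every value below rests on 3 mice per group. The colon was taken from the cecum to the rectum, freed of fat, opened and washed, and it served several assays. Neither the part taken for RNA nor any removal of the muscle wall is described in the sources used here. Poly(A) RNA was sequenced in bulk, so that fewer cells of a type and less RNA per cell cannot be told apart in any value below. The other 6 libraries are of mice given AOM and DSS, without swimming (Model) and with it (Model_Swim).

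The lining of the colon is renewed from dividing cells at the crypt base. Goblet cells, its chief secretory cells, make the mucus that keeps bacteria off the epithelium: they fold and link mucins in the endoplasmic reticulum (ER), glycosylate them in the Golgi and store them in granules. Absorptive colonocytes take up salt, water and short-chain fatty acids, antimicrobial proteins are released by several epithelial cell types, and beneath the epithelium lie immune cells, vessels, muscle and the enteric nervous system with its neurons and glia.

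The libraries held between 18133267 and 19451055 counts on genes, so that 3 counts, the limit that a count of 0 allows, stand for 0.153 to 0.165 CPM (counts scaled to the size of the library and by edgeR's TMM). This limit covers counting error only. The colon label was borne out by Epcam (1250 to 1658 CPM), Cdx2 (237 to 332 CPM), Krt20 (720 to 1017 CPM) and the smooth muscle gene Myh11 (2056 to 2659 CPM). Ctrl_Swim 2 and 4 also held transcripts of tissues that are no part of the colon's mucosa. The summed CPM of 23 genes of squamous epithelium was 92.5 to 102 in Ctrl, 102 in Ctrl_Swim 3, 208 in Ctrl_Swim 2 and 1239 in Ctrl_Swim 4, and that of 15 skeletal muscle genes was 41.7 to 89.0, 47.4, 230 and 539. Traces of pancreatic transcripts divided the libraries too. The median level of 12 abundant acinar genes was 0.1% to 0.122% of that in 2 heavily loaded Model libraries in Ctrl, 0.0859% in Ctrl_Swim 3, and 0.00405% and 0.00417% in Ctrl_Swim 2 and 4. Ctrl_Swim 3 thus lay with the Ctrl libraries in all these respects, and the change in Ctrl_Swim 3 alone is given beside the main results.

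Of the 18514 genes counted, 15484 were tested, in an edgeR quasi-likelihood fit over all 12 libraries with p-values adjusted by Benjamini-Hochberg. The fold change of Ctrl_Swim over Ctrl had a median of 0.000 on the log2 scale, and 50% of the genes tested were higher. An adjusted p under 0.05 was reached by 150 genes, 124 lower in Ctrl_Swim (0.801% of the genes tested) and 26 higher (0.168%), and the mice of both groups did not overlap in any of the 150. A change of more than 2-fold as well was reached by 26 genes (0.168%), 22 lower and 4 higher. An unadjusted p under 0.05 was reached by 1260 genes higher (8.14%) and 1470 lower (9.49%), and the 3 mice of 1 group lay wholly above the 3 of the other in 4250 genes (27.4%), 1947 higher (12.6%) and 2303 lower (14.9%). These percentages are the background for the counts of gene lists below. Unless another fit is named, passing refers below to the edgeR fit of all 12 libraries. The excess of lower genes depended on the scale: by limma on log2(FPKM + 0.1), where the median of all genes was 0.108, 33 of 53 genes past the adjusted p were higher. By DESeq2, on counts, 217 of 658 were higher, so most were still lower.

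Calls at the adjusted p were not stable to the loss of a mouse. Leaving out Ctrl 1, Ctrl 3 or Ctrl_Swim 3, edgeR passed 0 genes (with 1878, 1929 and 2182 genes in turn under 0.05 unadjusted). Without Ctrl 2 it passed 10, without Ctrl_Swim 2 it passed 61 and without Ctrl_Swim 4 it passed 77. The direction of the 150 genes could not turn in these fits, since genes without overlap between the groups keep their direction when a mouse is left out. For Ctrl_Swim 3 against the 3 Ctrl mice, in an edgeR fit that takes its spread from the other libraries and assumes that the lone mouse varies like them, 0 genes passed the adjusted p (1456 at an unadjusted p under 0.05). The calls below are therefore given with the values in each mouse.

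**Figure D1:**
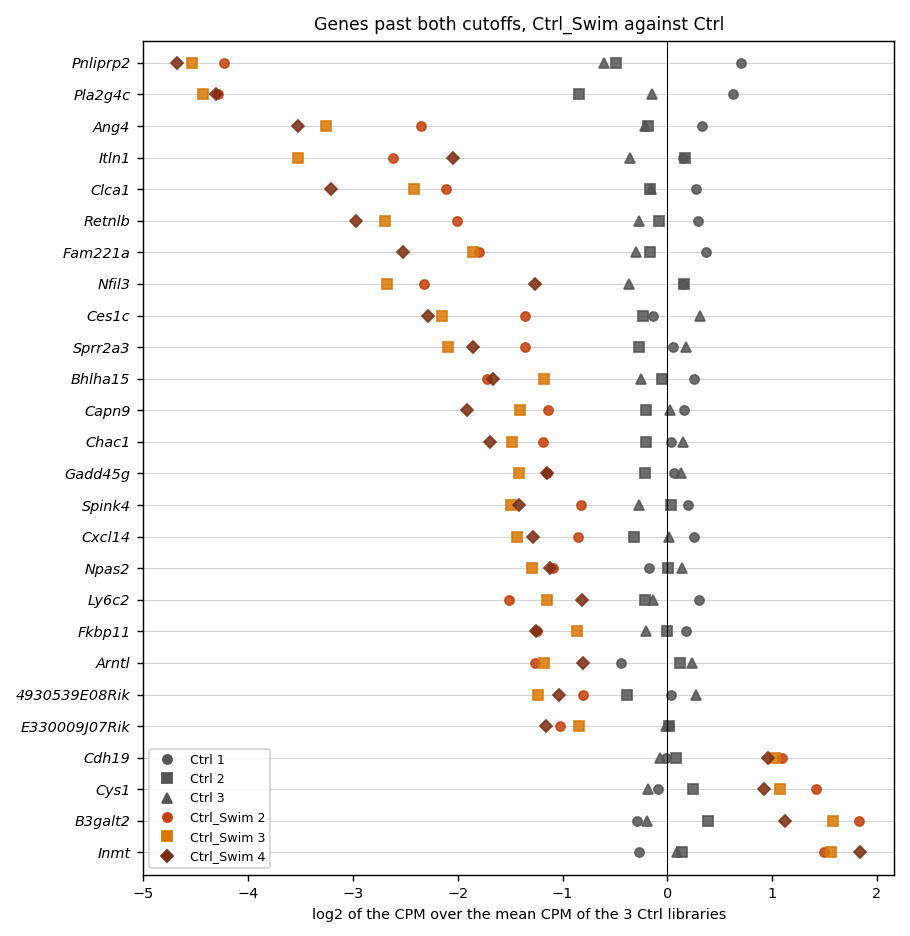
Level of each gene past an adjusted p of 0.05 and a 2-fold change in each library, as log2 of its CPM over the mean CPM of the 3 Ctrl libraries (grey, Ctrl mice; orange and brown, Ctrl_Swim mice; one symbol per mouse). In all 26 rows the Ctrl_Swim mice lie to 1 side of the Ctrl mice, 22 to the left and 4 to the right.

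Large decreases were found in secreted products of the colonic epithelium. Clca1, which encodes a protease of the mucus layer, had 21669, 15907 and 16094 CPM in the 3 Ctrl mice and 4131, 3356 and 1929 CPM in the 3 Ctrl_Swim mice. Every Ctrl_Swim mouse lay far below every Ctrl mouse, and the fitted decrease was 5.70-fold (log2 fold change -2.51, SE 0.50, adjusted p = 0.0465). In GRCm38.p6 it spans bases 145004537 to 145032776 of chromosome 3, and in Ctrl_Swim 3 alone the log2 difference from Ctrl was -2.40. Ang4, an antimicrobial ribonuclease, had 3051, 2140 and 2090 CPM in Ctrl and 477, 253 and 211 CPM in Ctrl_Swim, a 7.74-fold decrease (log2 fold change -2.95, SE 0.58, adjusted p = 0.0442). Retnlb, which encodes the goblet cell protein RELMβ that acts on bacteria, had 2445, 1895 and 1654 CPM in Ctrl and 497, 309 and 255 CPM in Ctrl_Swim, a 5.64-fold decrease (log2 fold change -2.50, SE 0.50, adjusted p = 0.0465). The lowest Ctrl mouse stood above the highest Ctrl_Swim mouse by a wide margin in both genes. Itln1, whose product intelectin binds microbial sugars, had 146, 148 and 103 CPM in Ctrl and 21.5, 11.5 and 32.0 CPM in Ctrl_Swim, a 6.09-fold decrease (adjusted p = 0.0431). Ang4 belongs to a family of close copies, among which the authors' counting may have divided reads.

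Of the goblet cell list, 22 of 23 genes were tested and 20 were lower in Ctrl_Swim, with a median log2 fold change of -0.50 against 0.000 for all genes. Of these, 5 passed the adjusted p, all lower: Clca1, Capn9, Spink4, Agr2 and Foxa3. Capn9, a calpain of the gut, had 82.6, 64.4 and 75.3 CPM in Ctrl and 33.7, 28.0 and 19.7 CPM in Ctrl_Swim (log2 fold change -1.45, SE 0.24, adjusted p = 0.0297). Spink4, a small secreted protein of goblet cells, had 1473, 1316 and 1068 CPM in Ctrl and 725, 456 and 483 CPM in Ctrl_Swim (log2 fold change -1.21, adjusted p = 0.0465). Agr2, the disulfide isomerase that goblet cells use to fold Muc2, had 2403, 2091 and 1907 CPM in Ctrl and 1183, 1287 and 1205 CPM in Ctrl_Swim (log2 fold change -0.80, SE 0.15, adjusted p = 0.0394). The groups did not overlap in any of these genes, and the Ctrl_Swim mice lay within a narrow range of each other in Agr2. Foxa3, a transcription factor of goblet cells, was lower by 0.64 on the log2 scale in the fit (adjusted p = 0.0421).

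Muc2, the gel-forming mucin itself, did not pass. It had 10892, 8729 and 9222 CPM in Ctrl and 7139, 8272 and 7377 CPM in Ctrl_Swim (log2 fold change -0.34, SE 0.32, adjusted p = 0.608), a difference much smaller than that of Clca1 although the mice did not overlap. Fcgbp, which is secreted with Muc2 and bound to it, had 11629, 9160 and 9412 CPM in Ctrl and 3879, 3754 and 2425 CPM in Ctrl_Swim (log2 fold change -1.59, SE 0.38) at an adjusted p of 0.0831. It passed in an edgeR fit of the 6 libraries alone (adjusted p = 0.00791) and by DESeq2 (adjusted p = 0.0132). The goblet cell transcription factors Spdef (log2 fold change -0.69, adjusted p = 0.135) and Atoh1 (log2 fold change -0.35, adjusted p = 0.348) and the lectin Zg16 (log2 fold change -0.57, adjusted p = 0.209) did not pass either. The list's CPM sum was 52652, 41944 and 42905 in Ctrl and 20962, 20803 and 16339 in Ctrl_Swim, a ratio of 0.423. Without Clca1 and Fcgbp the ratio was 0.720, so most of the fall in the sum lay in these genes. General epithelial genes differed less, at log2 fold changes of -0.21 for Epcam, -0.22 for Vil1 and -0.19 for Cdh17, none of which passed. The list's median was -0.39 in Ctrl_Swim 3 alone and lay between -0.54 and -0.35 when 1 mouse was left out.

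Antimicrobial and crypt base products gave 17 lower genes of 21 tested and a median of -0.79, with 6 lower genes and 0 higher genes past the adjusted p. The median was -0.43 without Ctrl 3. Besides Ang4, Retnlb and Itln1 these were Sprr2a3, Duox2 and Pigr. Sprr2a3, a small proline-rich protein of the epithelium, had 610, 489 and 668 CPM in Ctrl and 230, 138 and 163 CPM in Ctrl_Swim (log2 fold change -1.74, SE 0.22, adjusted p = 0.0175), which was among the smallest adjusted p of all genes. Its near-identical copies Sprr2a1 and Sprr2a2 make the division of reads among them uncertain. Duox2, the oxidase that releases hydrogen peroxide at the cell surface, had 245, 136 and 213 CPM in Ctrl and 98.6, 95.5 and 119 CPM in Ctrl_Swim (log2 fold change -0.92, adjusted p = 0.0411), and Ctrl 2 lay close to the Ctrl_Swim mice. Pigr, the receptor that carries IgA across the epithelium, had 6676, 6660 and 6856 CPM in Ctrl and 5298, 4979 and 4403 CPM in Ctrl_Swim, a smaller and even decrease (log2 fold change -0.46, SE 0.09, adjusted p = 0.0467).

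Other antimicrobial genes did not pass. Mptx1, a mucosal pentraxin, had 6867, 6994 and 6185 CPM in Ctrl and 1447, 2422 and 1442 CPM in Ctrl_Swim (log2 fold change -1.92, SE 0.96, adjusted p = 0.323). Its groups lay far apart here, but the fit draws its spread from all 12 libraries. Reg3g, a lectin induced by bacteria, ranged from 18.4 to 97.8 CPM in Ctrl and from 37.0 to 231 CPM in Ctrl_Swim (log2 fold change 0.86, adjusted p = 0.661), and Dmbt1 had a log2 fold change of 0.17 (adjusted p = 0.709). Left without Mptx1, Ang4 and Retnlb, the summed CPM of the list had a Ctrl_Swim to Ctrl ratio of 0.835 in place of 0.630.

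Pla2g4c and Pnliprp2, both lipid hydrolases, had the largest decreases of the called genes. Pla2g4c, a cytosolic phospholipase A2 on chromosome 7 from 13311507 to 13360674, had 1318, 479 and 775 CPM in Ctrl and 43.9, 39.8 and 43.2 CPM in Ctrl_Swim (log2 fold change -4.34, SE 0.78, adjusted p = 0.0348). The Ctrl mice differed among themselves by more than 2-fold while the Ctrl_Swim mice were nearly equal, and the fitted decrease was 20.3-fold. Pnliprp2, pancreatic lipase-related protein 2, on chromosome 19 from 58759723 to 58777534, had 236, 103 and 95.6 CPM in Ctrl and 7.72, 6.27 and 5.67 CPM in Ctrl_Swim (log2 fold change -4.47, SE 0.87, adjusted p = 0.0431). Pnliprp2 is also in the pancreatic acinar list, whose 19 tested genes were all lower with a median of -1.83 (-4.42 without Ctrl_Swim 3) and of which no other passed. Pnlip, the acinar lipase of the same list, had 4.58, 5.12 and 5.16 CPM in Ctrl and 0.164, 3.88 and 0.153 CPM in Ctrl_Swim. Pnliprp2 was low in every Ctrl_Swim mouse, and in Ctrl_Swim 3 alone its log2 difference from Ctrl was -4.51. The part of pancreatic traces in the values of Pnliprp2 was not tested.

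Among the other secretory cells of the crypt, tuft cell genes gave 13 lower of 15 tested and a median of -0.36, with 5 lower at an unadjusted p under 0.05 and none past the adjusted p in the edgeR fit of 12 libraries. Their channel gene Trpm5 had 16.1, 16.6 and 15.2 CPM in Ctrl and 8.87, 8.03 and 8.33 CPM in Ctrl_Swim (log2 fold change -0.92, SE 0.27, adjusted p = 0.136). The groups did not overlap and the mice within each were nearly equal, while the spread used in the test is that of all 12 libraries. In an edgeR fit of the 6 libraries alone the adjusted p of Trpm5 was 0.00791, and by DESeq2 it was 0.0264. Enteroendocrine genes had a median of 0.19, with 17 higher and 7 lower of 24, 3 higher at an unadjusted p under 0.05 and 0 past the adjusted p. Chga and Chgb, their granins, had log2 fold changes of 0.13 and 0.12.

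**Figure D2:**
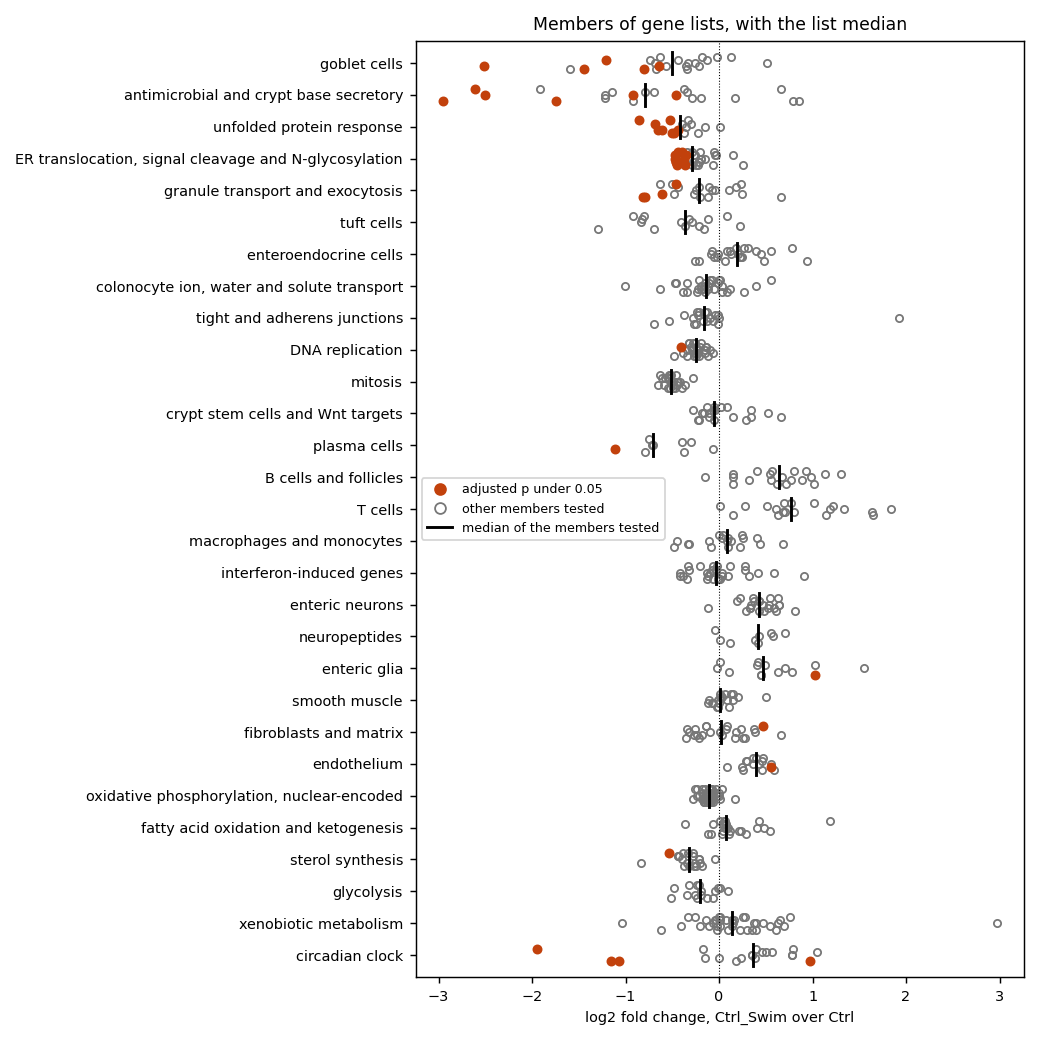
Log2 fold change of Ctrl_Swim over Ctrl for each tested member of 29 gene lists (filled, adjusted p under 0.05; open, the others; bar, median of the members tested). The filled points lie to the left in the goblet, antimicrobial, unfolded protein response, translocation and granule lists, and on both sides in the clock list. The endothelium and mitosis lists lie to 1 side of 0, as does the neuron list but for 1 gene, with 0 or 1 filled point each.

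The genes of the secretory pathway were lower as well, in small and even steps. Of 16 genes of the unfolded protein response, the programme that adjusts ER chaperones to the load of secreted protein, 15 were lower and 9 passed the adjusted p, with a median of -0.42. Sdf2l1, a chaperone partner, had 50.4, 40.6 and 41.3 CPM in Ctrl and 23.7, 25.9 and 23.3 CPM in Ctrl_Swim (log2 fold change -0.86, SE 0.10, adjusted p = 0.0175). Pdia6, a disulfide isomerase, had 343, 308 and 286 CPM in Ctrl and 183, 192 and 205 CPM in Ctrl_Swim (log2 fold change -0.69, SE 0.09, adjusted p = 0.0175). Hspa5, the main ER chaperone BiP, had 702, 635 and 637 CPM in Ctrl and 450, 495 and 430 CPM in Ctrl_Swim (log2 fold change -0.52, SE 0.09, adjusted p = 0.0372). In each of these genes the Ctrl_Swim mice formed a tight group below the Ctrl mice. Manf, Creld2, Calr, Hyou1, Edem1 and Dnajc3 passed too, with log2 fold changes from -0.65 for Creld2 to -0.38 for Dnajc3. Ddit3, the gene of the stress factor CHOP, had 9.38, 11 and 11.5 CPM in Ctrl and 9.86, 10.8 and 11.3 CPM in Ctrl_Swim (log2 fold change 0.01, adjusted p = 0.991). The list's CPM sum was 4439, 4077 and 3892 in Ctrl and 2961, 3136 and 2975 in Ctrl_Swim.

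The ER stress element, to which ATF6 binds with NF-Y, is written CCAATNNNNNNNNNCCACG, and it was searched on both strands in the 250 bases before the gene starts given by RefSeq for GRCm38.p6. It was found in 0.113% of 32851 start windows and in 0.144% of the 11771 tested genes with a window, and in 6 of the 14 list members with one. These were Hspa5, Hsp90b1, Pdia6, Calr, Creld2 and Dnajc3, of which all but Hsp90b1 (log2 fold change -0.40, adjusted p = 0.0937) passed the test. The element was chosen after the values were seen, the list was written with such targets in mind, and a match is a description of the letters and neither a bound site nor a cause. The stretches of the members that passed are shown so that the shared letters can be seen against unlike surroundings, each along its gene's strand, with the fixed letters of the element or of its reverse complement in capitals.
Hspa5, chr2:34772009-34772059: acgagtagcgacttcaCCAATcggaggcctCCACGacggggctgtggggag
Pdia6, chr12:17266475-17266525: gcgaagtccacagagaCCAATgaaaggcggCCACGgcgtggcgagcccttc
Dnajc3, chr14:118937811-118937861: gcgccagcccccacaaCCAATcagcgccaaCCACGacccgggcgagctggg
Creld2, chr15:88819504-88819554: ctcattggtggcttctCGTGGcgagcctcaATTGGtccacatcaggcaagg
Calr, chr8:84847059-84847109: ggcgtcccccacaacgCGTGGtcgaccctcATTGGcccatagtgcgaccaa
The first base of the match lay 65 bases before the start in Hspa5, 98 in Pdia6, 105 in Dnajc3, 126 in Creld2 and 162 in Calr, and the element stood in reverse in Creld2 and Calr. Calr lies on the minus strand of its chromosome and the others on the plus strand.

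Beyond these chaperones, 4 lists of the secretory route were added after the values were seen and are a description only. Of 34 genes of translocation into the ER, signal cleavage and N-glycosylation, 32 were lower and 11 passed the adjusted p (median -0.29). Sec61a1, the channel subunit, had 344, 319 and 315 CPM in Ctrl and 250, 253 and 236 CPM in Ctrl_Swim (log2 fold change -0.40, SE 0.06, adjusted p = 0.0198), and Rpn1, of the oligosaccharyltransferase, had 428, 405 and 389 CPM and 306, 300 and 288 CPM (log2 fold change -0.45, SE 0.06, adjusted p = 0.0175). Their mice were ordered alike, with each Ctrl_Swim mouse below each Ctrl mouse and little spread within a group. Of 32 genes of ER to Golgi transport 30 were lower and 7 passed (median -0.23), among them the coat protein Sec23b (log2 fold change -0.46, adjusted p = 0.0175) and the cargo receptor Tmed3 (log2 fold change -0.53, adjusted p = 0.0266). Of 21 genes of granule transport and exocytosis 16 were lower and 4 passed (median -0.22, or -0.34 without Ctrl_Swim 2). Mlph, which links granules to myosin, had 205, 171 and 191 CPM in Ctrl and 117, 106 and 98.4 CPM in Ctrl_Swim (log2 fold change -0.81, SE 0.10, adjusted p = 0.0175). Rab27a, the small GTPase that recruits Mlph, had 72.4, 62.2 and 68.3 CPM in Ctrl and 40.0, 41.1 and 36.3 CPM in Ctrl_Swim (log2 fold change -0.79, adjusted p = 0.0416). Rab27b and Rab3d, of the same family, fell by 0.61 and 0.46 on the log2 scale.

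All 20 tested cytosolic aminoacyl-tRNA synthetases, which load amino acids onto tRNA, were lower (median -0.23) and 3 passed: Tars (164, 156 and 153 CPM in Ctrl and 115, 111 and 113 CPM in Ctrl_Swim, log2 fold change -0.48), Aars (log2 fold change -0.39) and Yars (log2 fold change -0.38). Together the goblet, antimicrobial and unfolded protein response lists and these 4 lists held 45 of the 124 lower genes, and 70 of the 124 were in no list. Bhlha15, the transcription factor MIST1 of secretory cells, was called and in no list, with 22.0, 17.8 and 15.4 CPM in Ctrl and 5.59, 8.14 and 5.82 CPM in Ctrl_Swim (log2 fold change -1.50, SE 0.28, adjusted p = 0.0416). Others in no list, chosen after their values were seen, were the sialyltransferase gene St3gal4 (498 ± 55.8 CPM in Ctrl and 249 ± 35.1 CPM in Ctrl_Swim, SD, n = 3, edgeR adjusted p = 0.0421), the glutathione peroxidase gene Gpx2 of the epithelium (log2 fold change -0.71, adjusted p = 0.0297), the mannose 6-phosphate receptor gene Igf2r (log2 fold change -0.65, adjusted p = 0.0266) and Eif2ak3, the gene of the ER stress sensor PERK (log2 fold change -0.43, adjusted p = 0.0177).

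In the list of amino acid response and serine synthesis, 11 of 14 genes were lower (median -0.24) and only Chac1, which encodes a glutathione-degrading enzyme and is a target of ATF4, passed. Chac1 was rare, with 3.20, 2.72 and 3.46 CPM in Ctrl and 1.37, 1.12 and 0.971 CPM in Ctrl_Swim, and its groups did not overlap (log2 fold change -1.44, SE 0.25, adjusted p = 0.0334). Asns, the asparagine synthetase, had 58.9, 50.7 and 44.4 CPM in Ctrl and 29.5, 30.8 and 35.2 CPM in Ctrl_Swim at an adjusted p of 0.0692, and Atf4 itself had a log2 fold change of -0.17 (adjusted p = 0.418). The C/EBP-ATF element TTGCATCA, also chosen after the values were seen, was found on either strand in 0.791% of the start windows and in 0.722% of the tested genes with one. It was present in 4 of 14 members of this list and in 2 of the 12 synthetase genes with a window, Aars and Tars. The windows of the 3 genes that passed the test are shown with the element in capitals. Some genes have several RefSeq starts: the window of Aars lies inside the gene, before a later start, and those of Chac1 and Tars lie before the gene.
Chac1, chr2:119351033-119351072: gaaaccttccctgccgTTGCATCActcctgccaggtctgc
Aars, chr8:111033714-111033753: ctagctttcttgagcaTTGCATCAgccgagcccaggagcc
Tars, chr15:11399659-11399689: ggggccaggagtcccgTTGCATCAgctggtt
Slc7a11, Nupr1 and Vldlr also held the element and did not pass, with log2 fold changes of -0.52, 0.23 and -0.21.

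Plasma cells also carry a large secretory load. Of their 9 tested genes all were lower, with a median of -0.71, 7 at an unadjusted p under 0.05 and 1 past the adjusted p. The median was -0.40 without Ctrl 1 and -0.45 without Ctrl 2. The gene that passed was Fkbp11, a prolyl isomerase of the secretory pathway, with 21.1, 18.7 and 16.2 CPM in Ctrl and 7.89, 10.3 and 7.82 CPM in Ctrl_Swim (log2 fold change -1.11, SE 0.20, adjusted p = 0.0348). Jchain, which joins IgA, had 1164, 1255 and 772 CPM in Ctrl and 757, 886 and 777 CPM in Ctrl_Swim, and Ctrl 3 lay among the Ctrl_Swim mice (log2 fold change -0.40, adjusted p = 0.344). Mzb1, a chaperone of immunoglobulin, had a log2 fold change of -0.75 at an adjusted p of 0.140. The part of plasma cells in the lower ER genes was not tested.

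**Figure D3:**
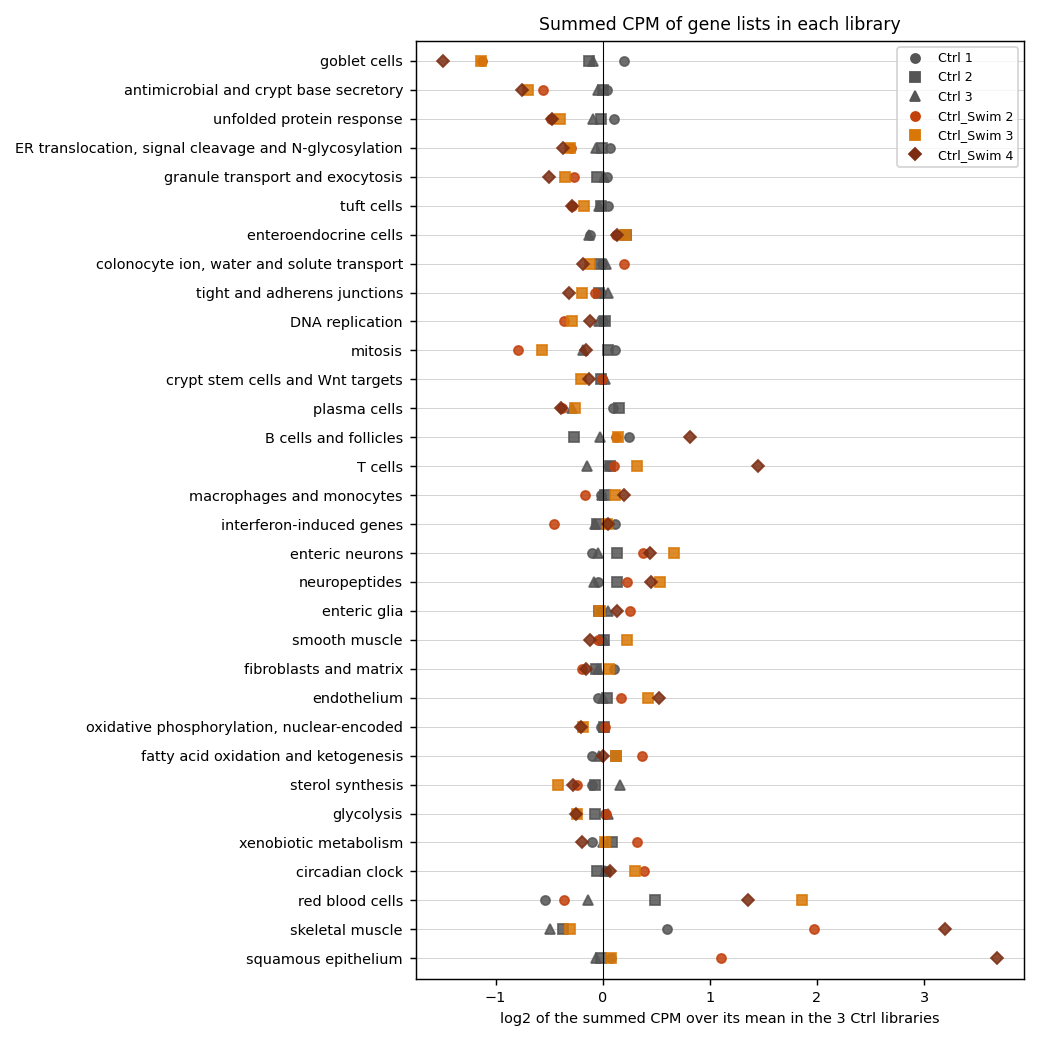
Summed CPM of 32 gene lists in each library, as log2 over the mean of the 3 Ctrl libraries (grey, Ctrl mice; orange and brown, Ctrl_Swim mice). The 3 Ctrl_Swim mice lie together to the left in the goblet, antimicrobial and unfolded protein response lists, Ctrl_Swim 4 stands apart in T cells, B cells and squamous epithelium, and Ctrl_Swim 2 and 4 in skeletal muscle.

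The circadian clock list changed in both directions. In the clock, BMAL1 (Arntl) with CLOCK or NPAS2 switches on the Per, Cry and Nr1d genes and the factors DBP and TEF, PER and CRY proteins shut BMAL1 off, and NFIL3 competes with DBP and TEF at D-box sequences. Of 20 genes 14 were higher and 6 lower (median 0.36), with 1 higher and 3 lower past the adjusted p and 10 higher and 3 lower at an unadjusted p under 0.05. Per3, on chromosome 4 from 150997018 to 151044707, had 39.3, 36.0 and 37.9 CPM in Ctrl and 77.1, 73.7 and 71.2 CPM in Ctrl_Swim (log2 fold change 0.97, SE 0.13, adjusted p = 0.0175). The mice within each group were almost equal, and every Ctrl_Swim mouse had nearly double the level of every Ctrl mouse. Arntl had 15, 22.2 and 24 CPM in Ctrl and 8.49, 8.99 and 11.7 CPM in Ctrl_Swim (log2 fold change -1.07, SE 0.19, adjusted p = 0.0343). Npas2 had 15.6, 17.7 and 19.4 CPM in Ctrl and 8.27, 7.18 and 8.12 CPM in Ctrl_Swim (log2 fold change -1.16, SE 0.19, adjusted p = 0.0266). Arntl and Npas2 were thus lower and Per3 higher, with no overlap in any of the 3 genes, while Clock had a log2 fold change of -0.17 and overlapped. Nfil3, on chromosome 13 from 52967209 to 52982878, had 10.9, 11 and 7.64 CPM in Ctrl and 1.97, 1.54 and 4.09 CPM in Ctrl_Swim, a 3.87-fold decrease (log2 fold change -1.95, SE 0.29, adjusted p = 0.0210).

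Other genes of the clock did not pass. Tef had 116, 103 and 105 CPM in Ctrl and 183, 162 and 138 CPM in Ctrl_Swim (log2 fold change 0.57, adjusted p = 0.0553), Dbp had 63.9, 58.8 and 70.0 CPM and 118, 118 and 95.1 CPM (log2 fold change 0.78, adjusted p = 0.191), and Ciart had a log2 fold change of 1.05 (adjusted p = 0.141). Their groups did not overlap, and Ctrl_Swim 4 was the lowest Ctrl_Swim mouse in all 3 genes. Nr1d1, a repressor that is usually among the most rhythmic clock genes, had 130, 135 and 156 CPM in Ctrl and 153, 141 and 128 CPM in Ctrl_Swim, with the groups wholly mixed (adjusted p = 0.999). Wee1, a cell cycle kinase under clock control that is in no list and was chosen after its value was seen, rose by 0.45 on the log2 scale (adjusted p = 0.0372). Swimming took place at a set morning hour, and the hour at which each mouse was killed is not given in the sources used here, so that swimming and the hour of sampling cannot be told apart for these genes.

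The start windows of 17 clock genes were searched for the D-box TTATGTAA and the E-box CACGTG. The D-box, found in 0.819% of all start windows and 0.697% of tested genes with one, was present only in Per3 of the 17, in 2 copies. The stretch from 245 to 91 bases before a RefSeq start of Per3, along the minus strand of its chromosome, is shown because it holds both copies, in capitals.
Per3, chr4:151044756-151044910: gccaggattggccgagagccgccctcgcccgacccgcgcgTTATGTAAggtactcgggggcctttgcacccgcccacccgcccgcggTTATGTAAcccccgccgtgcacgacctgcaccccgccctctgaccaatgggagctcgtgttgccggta
The copies began 205 and 158 bases before that start, which lies a little inside the gene span given above. The E-box was found in 6.02% of the windows and 9.18% of tested genes with one, and in 5 of the 17 clock genes, Per1, Cry1, Tef, Ciart and Bhlhe41, none of which passed the test.

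**Figure D4:**
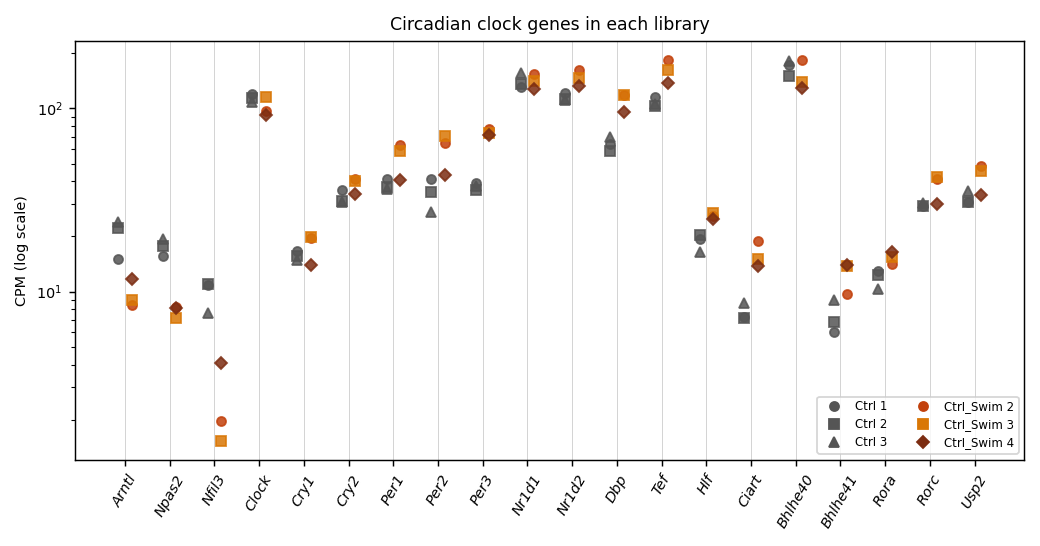
CPM, on a log axis, of the 20 circadian clock genes in each library (grey, Ctrl mice; orange and brown, Ctrl_Swim mice). Arntl, Npas2 and Nfil3 lie lower in all 3 Ctrl_Swim mice and Per3 higher, while Nr1d1 and Clock overlap between the groups.

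Of the listed genes of mitosis and DNA replication, all were lower and Mcm5 passed. All 25 tested genes of mitosis were lower with a median of -0.51, 24 at an unadjusted p under 0.05 and 0 past the adjusted p by edgeR. Their summed CPM was 1588, 1519 and 1288 in Ctrl and 846, 990 and 1311 in Ctrl_Swim. Ctrl_Swim 4 lay just above Ctrl 3, so the groups overlapped, and the median was -0.70 without Ctrl_Swim 4 and -0.33 without Ctrl_Swim 2. Cdc20, an activator of the anaphase-promoting complex, had 59.0, 59.6 and 48.1 CPM in Ctrl and 30.4, 34.2 and 46.5 CPM in Ctrl_Swim (log2 fold change -0.58, SE 0.13, adjusted p = 0.0692). Mki67, the usual marker of dividing cells, had 351, 324 and 290 CPM in Ctrl and 196, 235 and 298 CPM in Ctrl_Swim (log2 fold change -0.40, adjusted p = 0.173). All 29 genes of DNA replication were lower too, with a median of -0.25 and 12 at an unadjusted p under 0.05. Mcm5, a subunit of the replicative helicase, was the one that passed, with 70.6, 69.4 and 70.3 CPM in Ctrl and 48.3, 54.6 and 55.1 CPM in Ctrl_Swim (log2 fold change -0.41, SE 0.08, adjusted p = 0.0442). Lig1, the ligase that joins replicated DNA, and the cell cycle factor E2f2 are in neither list, were chosen after their values were seen and also fell, by 0.37 (adjusted p = 0.0383) and 0.77 (adjusted p just under 0.05) on the log2 scale. Pcna, the replication clamp, had a log2 fold change of -0.24 (adjusted p = 0.202). Genes of stem cells and Wnt signalling had a median of -0.05 and those of ribosome biogenesis -0.05, with 0 genes of either at an unadjusted p under 0.05. These small medians turned positive on the FPKM scale, while those of mitosis (-0.40) and DNA replication (-0.12) did not.

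The higher medians of the T cell, B cell and neutrophil lists depended on Ctrl_Swim 4. All 19 tested T cell genes were higher with a median of 0.77, but their summed CPM was 53.3, 53.7 and 46.1 in Ctrl, 55.1 and 63.6 in Ctrl_Swim 2 and 3 and 140 in Ctrl_Swim 4, and without Ctrl_Swim 4 the median was 0.23. B cell and follicle genes summed to 292, 204 and 242 CPM in Ctrl and 268, 271 and 432 CPM in Ctrl_Swim, with a median of 0.64 that was 0.13 without Ctrl_Swim 4. Neither list had a gene past the adjusted p by edgeR, with 8 T cell and 6 B cell genes higher at an unadjusted p under 0.05. Neutrophil genes had a median of 1.44 in the fit of 12 libraries, 0.27 without Ctrl_Swim 4 and 0.15 in a fit of the 6 libraries alone, and most were near 0 CPM: S100a8 had 0.0552, 0.272 and 0.0549 CPM in Ctrl and 0.110, 0.532 and 2.45 CPM in Ctrl_Swim. Macrophage genes had a median of 0.09, interferon-induced genes -0.03 and MHC class I genes -0.11, with 0 genes past the adjusted p. Adgre1, the macrophage marker F4/80, had 20.3, 18.5 and 17.6 CPM in Ctrl and 11.4, 15.7 and 13.4 CPM in Ctrl_Swim without overlap (adjusted p = 0.0940).

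Cxcl14, a chemokine of the epithelium, was the only gene of the cytokine list to pass. It had 75.8, 51.1 and 64.2 CPM in Ctrl and 35.2, 23.6 and 26.1 CPM in Ctrl_Swim (log2 fold change -1.17, SE 0.20, adjusted p = 0.0331). Ly6c2, a surface protein of monocytes and other cells, had 21.9, 15.3 and 16.2 CPM in Ctrl and 6.24, 8.03 and 10.1 CPM in Ctrl_Swim (log2 fold change -1.13, adjusted p = 0.0467). Its close copy Ly6c1, of endothelium, had a log2 fold change of 0.43 (adjusted p = 0.145), and reads shared by the copies make both values uncertain. Tlr4, the receptor for bacterial lipopolysaccharide, is in no list and was chosen after its values were seen: it had 51.3, 45.1 and 48.4 CPM in Ctrl and 34.3, 31.7 and 34.5 CPM in Ctrl_Swim (log2 fold change -0.53, SE 0.07, adjusted p = 0.0175). The mucosal mast cell protease gene Mcpt1 had 40.0, 5.28 and 22.7 CPM in Ctrl and 5.53, 1.75 and 2.96 CPM in Ctrl_Swim, and Ctrl 2 lay as low as Ctrl_Swim 2 (log2 fold change -2.73, SE 0.85, adjusted p = 0.152).

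Enteric neuron genes summed higher in each Ctrl_Swim mouse than in any Ctrl mouse. Of 23 tested genes of enteric neurons 22 were higher, with a median of 0.43, and 17 did not overlap between the groups, all higher. Only 8 reached an unadjusted p under 0.05, and 0 passed the adjusted p in the edgeR fit of 12 libraries. The list's CPM sum was 266, 312 and 276 in Ctrl and 369, 452 and 386 in Ctrl_Swim. Uchl1, a ubiquitin hydrolase of neurons, had 17.8, 23.4 and 19.6 CPM in Ctrl and 26.5, 34.6 and 33.7 CPM in Ctrl_Swim (log2 fold change 0.64, SE 0.21, adjusted p = 0.178). Nos1, of the inhibitory motor neurons, had 27.3, 30.9 and 27.3 CPM in Ctrl and 37.8, 54.4 and 39.9 CPM in Ctrl_Swim (log2 fold change 0.63, SE 0.31, adjusted p = 0.311). The neuropeptide gene Vip had 33.4, 39.5 and 37.1 CPM in Ctrl and 45.4, 55.4 and 61.3 CPM in Ctrl_Swim (log2 fold change 0.56, SE 0.18, adjusted p = 0.160). The highest of the 3 Ctrl mice was Ctrl 2 in each of these genes, and it stayed below every Ctrl_Swim mouse. Leaving out 1 mouse at a time moved the median of the neuron list between 0.42 and 0.55, and in Ctrl_Swim 3 alone it was 0.64. In an edgeR fit of the 6 libraries alone, where more genes passed, Calb2 (adjusted p = 0.0260), Snap25 (0.0479), Uchl1 (0.0489) and Vip (0.0489) did. By DESeq2 Snap25 (adjusted p = 0.0459) and Vip (0.0417) passed.

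Glial genes gave 13 higher of 14 tested with a median of 0.47, 6 at an unadjusted p under 0.05 and 1 past the adjusted p. Their summed CPM was 304, 301 and 319 in Ctrl and 368, 302 and 338 in Ctrl_Swim, with Ctrl_Swim 3 inside the Ctrl range. Cdh19, a cadherin of glia and Schwann cells, had 5.02, 5.34 and 4.83 CPM in Ctrl and 10.8, 10.3 and 9.81 CPM in Ctrl_Swim with little spread in either group (log2 fold change 1.03, SE 0.21, adjusted p = 0.0499). Sox10, the glial transcription factor, had 4.30, 4.74 and 5.11 CPM in Ctrl and 6.24, 8.14 and 8.63 CPM in Ctrl_Swim (log2 fold change 0.70, adjusted p = 0.214), and Gfap had a log2 fold change of 0.01. Smooth muscle, which surrounds the ganglia, had a median of 0.01 with 0 genes at an unadjusted p under 0.05, and pacemaker cells of the muscle layer had a median of -0.11. Hox genes of the anterior and middle groups, which follow position along the gut, had a median of 0.32 with 10 of 20 not overlapping, all higher, and those of the posterior groups 0.03. The former was 0.21 without Ctrl_Swim 4. The part of the length or region of gut taken in these differences was not tested.

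Endothelial genes were all higher, 15 of 15, with a median of 0.39 and 12 at an unadjusted p under 0.05. Kdr, the main receptor for vascular endothelial growth factor, had 31.8, 35.6 and 37.3 CPM in Ctrl and 44.7, 53.2 and 55.7 CPM in Ctrl_Swim and passed (log2 fold change 0.55, SE 0.11, adjusted p = 0.0431). Pecam1, an adhesion protein of endothelium, had 60.5, 63.2 and 59.3 CPM in Ctrl and 71.0, 83.2 and 100 CPM in Ctrl_Swim (log2 fold change 0.47, SE 0.10, adjusted p = 0.0540). No Ctrl mouse reached a Ctrl_Swim mouse in either gene. Ptprb, an endothelial phosphatase in no list and chosen after its values were seen, had 43.0, 44.6 and 42.9 CPM in Ctrl and 60.5, 77.5 and 69.1 CPM in Ctrl_Swim (log2 fold change 0.67, SE 0.09, adjusted p = 0.0175). Vegfd, a growth factor of lymphatic vessels, rose by 0.92 on the log2 scale from a mean of 1.92 CPM in Ctrl (adjusted p just under 0.05). Red blood cell genes were higher in Ctrl_Swim 3 and 4 only, with sums of 40.2, 82.1 and 53.2 CPM in Ctrl and 45.5, 213 and 150 CPM in Ctrl_Swim, and the part of blood left in the vessels was not tested. Dcn, the matrix proteoglycan decorin, had 239, 248 and 265 CPM in Ctrl and 318, 347 and 373 CPM in Ctrl_Swim (log2 fold change 0.47, SE 0.08, adjusted p = 0.0343), and it was the only one of 24 fibroblast and matrix genes to pass, the list's median being 0.02. Collagen Col3a1 had a log2 fold change of -0.34 (adjusted p = 0.223).

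The 4 called genes that were higher belong to no common list. Inmt, a methyltransferase, had 5.07, 6.76 and 6.54 CPM in Ctrl and 17.2, 18.1 and 21.9 CPM in Ctrl_Swim, a 3.12-fold increase (log2 fold change 1.64, SE 0.26, adjusted p = 0.0266). B3galt2, a galactosyltransferase, had 3.75, 5.99 and 4.01 CPM in Ctrl and 16.3, 13.7 and 10 CPM in Ctrl_Swim (log2 fold change 1.54, SE 0.30, adjusted p = 0.0438). Cys1, which encodes the ciliary protein cystin, had 5.74, 7.25 and 5.38 CPM in Ctrl and 16.3, 12.9 and 11.6 CPM in Ctrl_Swim (log2 fold change 1.15, SE 0.20, adjusted p = 0.0334). These and Cdh19 were low in Ctrl, and each rose 2.04-fold to 3.12-fold. The remaining called genes that were lower were Fam221a (log2 fold change -2.02, adjusted p = 0.0372), the carboxylesterase gene Ces1c (log2 fold change -1.87, adjusted p just under 0.05), which has close copies, the stress-response gene Gadd45g (log2 fold change -1.23, adjusted p = 0.0493), and the gene models 4930539E08Rik and E330009J07Rik, both at a log2 fold change of -1.01.

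The metabolic lists had medians between -0.32 and 0.14. Outside them, the enzyme genes Gpd2 (log2 fold change -0.67, adjusted p = 0.0175) and Oxct1 (log2 fold change -0.50, adjusted p just under 0.05) were lower. Both were chosen after their values were seen. Sterol synthesis had 21 of 21 genes lower, a median of -0.32 (-0.21 without Ctrl 3) and 15 at an unadjusted p under 0.05. Fdps, the farnesyl diphosphate synthase, had 142, 139 and 170 CPM in Ctrl and 96.4, 99.3 and 115 CPM in Ctrl_Swim and passed (log2 fold change -0.54, SE 0.10, adjusted p = 0.0343), and Srebf2, the regulator of the pathway, had a log2 fold change of -0.28 (adjusted p = 0.0643). The CPM sum of the list was 3442, 3501 and 4123 in Ctrl and 3127, 2768 and 3047 in Ctrl_Swim, so the groups did not overlap but lay close. Of 16 glycolysis genes 14 were lower with a median of -0.20, and Hk2, the inducible hexokinase, had 210, 166 and 188 CPM in Ctrl and 143, 119 and 133 CPM in Ctrl_Swim (log2 fold change -0.51, SE 0.11, adjusted p = 0.0577). Nuclear-encoded genes of oxidative phosphorylation had 44 of 48 lower and a median of -0.11, but on the FPKM scale the median was 0.01. Ndufs8, of complex I, had the lowest adjusted p among them, 0.0823, at a log2 fold change of -0.28. Ppargc1a, the coactivator of mitochondrial genes, had 42.0, 48.8 and 47.6 CPM in Ctrl and 39.9, 37.3 and 31.0 CPM in Ctrl_Swim (log2 fold change -0.36, SE 0.10, adjusted p = 0.125).

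Fatty acid oxidation and ketogenesis had 21 of 25 genes higher but a median of only 0.07 and 0 past the adjusted p by edgeR, with 3 higher and 1 lower at an unadjusted p under 0.05. Xenobiotic metabolism had a median of 0.14, and colonocyte transport of ions, water and solutes -0.14. Car1, the carbonic anhydrase of colonocytes, had 6817, 6382 and 6772 CPM in Ctrl and 9117, 5672 and 6975 CPM in Ctrl_Swim, and the groups overlapped. Its log2 fold change was 0.12, and its SE of 0.78 draws on the spread of all 12 libraries. Tight and adherens junction genes had a median of -0.16, with the occludin gene Ocln at -0.27 (adjusted p = 0.117). Heat shock genes, which exercise raises in muscle, had a median of -0.09 with 0 of 16 at an unadjusted p under 0.05, and glucocorticoid-induced genes had a median of -0.03, with the metallothionein gene Mt2 at 0.80 (adjusted p = 0.109). Immediate early genes had a median of -0.22 and 0 of 18 past the adjusted p (3 lower at an unadjusted p under 0.05). Fatty acid synthesis (-0.22), lipid absorption (-0.20, and 0.05 without Ctrl 3), prostanoid genes (-0.06), mast cells and eosinophils (-0.72, and -0.19 without Ctrl 1), cytotoxic lymphocytes (0.60, and 0.36 without Ctrl_Swim 4), MHC class II (0.28, and 0.11 without Ctrl_Swim 4), adipocytes (-0.06) and neuropeptides (0.42) likewise had no gene past the adjusted p in the edgeR fit of 12 libraries. Among genes that the study examined in its tumour model, Ptger2, Ptges, Pla2g4f, Fzd9, Cldn15 and Tfrc had log2 fold changes between -0.25 and 0.48 and adjusted p between 0.314 and 0.927.

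The same contrast in mice given AOM and DSS, Model_Swim against Model, shares no library with Ctrl_Swim against Ctrl. It had 11 genes past the adjusted p (0.0710% of the genes tested). Of the 150 genes past the adjusted p without AOM/DSS, 98 had the same sign with it, 37 an unadjusted p under 0.05 and 2 an adjusted p under 0.05, Per3 and Arntl. The 124 lower genes had a median log2 fold change of -0.49 without AOM/DSS and of -0.06 with it, where 83 of them were lower, as were 51.8% of all genes. They were chosen by their change without AOM/DSS, which by itself favours a smaller median in the other contrast. Per3 had log2 fold changes of 0.97 and 1.07, Arntl of -1.07 and -1.41, Npas2 of -1.16 and -0.98 and Nfil3 of -1.95 and -1.26, the first value of each pair being without AOM/DSS and the second with it. The interaction of swimming with AOM/DSS had an adjusted p of 0.822 for Per3, 0.501 for Arntl, 0.754 for Npas2 and 0.370 for Nfil3. The fitted values were further apart for other clock genes, at 0.57 and 1.58 for Tef, 0.78 and 2.26 for Dbp and -0.00 and 1.52 for Nr1d1. None of these passed the interaction, with edgeR adjusted p of 0.0894, 0.118 and 0.0688.

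For the secretory genes the values with AOM/DSS lay nearer to 0 or on its other side. Model 1 and Model 3 were heavily loaded with pancreatic transcripts, and the acinar list had a median of -11.62 in Model_Swim against Model. The part of these transcripts in the values with AOM/DSS was not tested. Clca1 had log2 fold changes of -2.51 without AOM/DSS and -0.07 with it, Ang4 of -2.95 and 0.03, Retnlb of -2.50 and 0.18 and Itln1 of -2.61 and 0.45, with interaction adjusted p of 0.125, 0.117, 0.115 and 0.115. Pla2g4c had -4.34 and -1.29 (interaction adjusted p = 0.152). The medians of the goblet list were -0.50 and 0.01, of the unfolded protein response -0.42 and -0.16, of endothelium 0.39 and -0.05, of enteric neurons 0.43 and 0.42, of mitosis -0.51 and -0.37 and of the clock 0.36 and 0.66. At an unadjusted p under 0.05 for the interaction by edgeR there were 2947 genes, 126 of the 150 among them. The 150 were chosen by the difference of Ctrl_Swim from Ctrl, which is part of the interaction. A high share among them was therefore favoured by that choice and says nothing about AOM/DSS. The interaction had 0 genes past the adjusted p by edgeR (0% of the genes tested) and 213 by DESeq2. A difference between the contrasts was therefore not shown for any gene by the edgeR test.

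**Figure D5:**
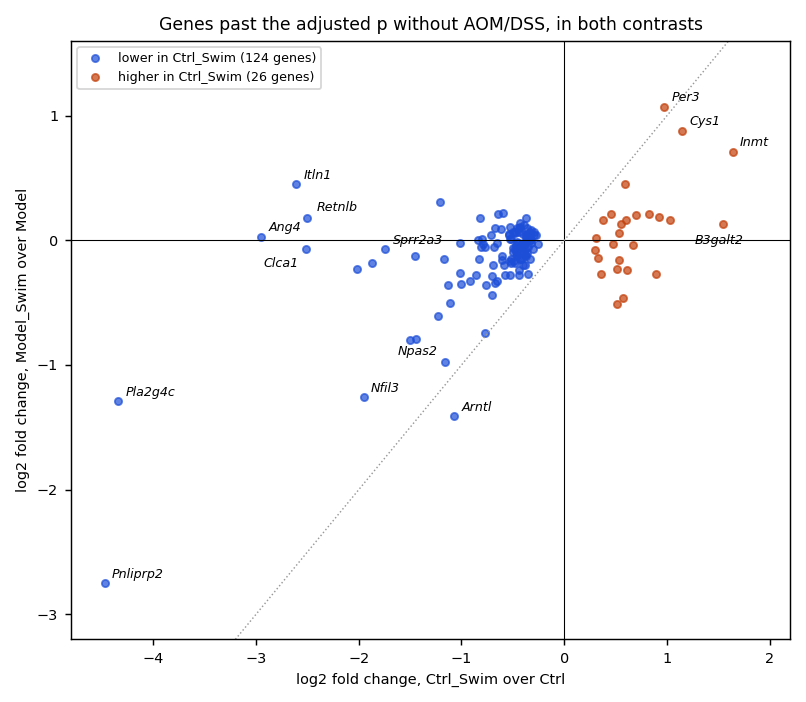
Log2 fold change of Ctrl_Swim over Ctrl (horizontal) and of Model_Swim over Model (vertical) for the 150 genes past the adjusted p without AOM/DSS (blue, 124 lower; orange, 26 higher; dotted line, equal changes). Per3, Arntl and Npas2 lie near the line of equal changes, while Clca1, Ang4, Retnlb and Itln1 lie near 0 or above it on the vertical axis.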

How the data were processed

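RNA of the colon of 12 mice was sequenced, 3 per group, with the TruSeq Stranded mRNA kit; the paper names TRIzol and the labels a mirVana kit for extraction. Trimming by the authors used Trimmomatic, and alignment to GRCm38.p6 used HISAT2. They deposited raw HTSeq-count counts per gene symbol and FPKM values from Cufflinks. Tool versions, annotation release and the strand setting of the counting are not given in the sources used here, so that antisense and overlapping genes may share reads. In 12 gene names a date replaced the symbol. Positions were taken from RefSeq, in which 18256 of 18514 symbols matched.

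The counts were fitted in edgeR 4.0.16 (R 4.3.3): TMM, filterByExpr with a minimum count of 10, a quasi-likelihood fit of the 4 groups and Benjamini-Hochberg adjustment. A gene was called where its adjusted p lay under 0.05 and its fold change exceeded 2 or lay below 0.5. CPM are TMM-scaled. The p-values measure the spread between single libraries of separate mice. Groups were taken from the labels. Replicates differed by more than sampling noise. The code was tested on simulated data.

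The comparison, the 49 gene lists and the tests were chosen with earlier results of these data known, and 4 lists (ER translocation, ER to Golgi transport, synthetases, granules) and the motifs were added after the values were seen. Named are all called genes other than gene models, pseudogenes and antigen receptor segments, and for each list the members with an adjusted p under 0.05 (up to 6) or else the 3 with the lowest p, the 3 most abundant, marker genes of cell types and 6 genes of the study, while other names were chosen after their values were seen. Alternatives were DESeq2 1.42.0, its size factors in edgeR, limma 3.58.1 on log2(FPKM + 1) with a mean FPKM of at least 0.5 or without a filter and on log2(FPKM + 0.1), no filter on counts, the 6 libraries alone, the replicate number as a block, terms for the division by pancreatic traces (at 0.01% and, added after seeing the data, at 0.03%), and leaving out each library. Figures were drawn with matplotlib 3.10.9.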

Additional observations from a re-analysis of the deposited data

How the results depend on the processing

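The 26 called genes without AOM/DSS became 22 with DESeq2's size factors and 19 without a filter on counts, 76 by DESeq2 (35 higher), 52 in the 6 libraries alone (10 higher), 9 by limma on log2(FPKM + 0.1), 5 on log2(FPKM + 1) (1 higher) and 2 without its filter (1 higher), and the 150 genes past the adjusted p alone became 127, 108, 658 (217 higher), 368 (125 higher), 53, 51 and 30 (15 higher). With the replicate number as a block, in which Ctrl_Swim 4, alone under its number, carried no information, 1 gene was called and 1 passed the adjusted p, none of them higher (0). Same-numbered mice had correlations of their deviations of -0.0818 for number 2 and 0.0168 for number 3, and other pairs lay between -0.136 and 0.14. So few pairs cannot decide whether the numbers pair samples, and the main fit used no pairing. Each term for the pancreatic division and Ctrl_Swim 3 alone left 0 genes (1864, 1459 and 1456 at an unadjusted p under 0.05). Leaving out 1 library gave 0 to 38 called genes (0 to 8 higher) and 0 to 302 past the adjusted p (0 to 106 higher), the highest without Model 1 and the lowest, 0, without Ctrl 1, Ctrl 3 or Ctrl_Swim 3; without Model_Swim 1, 2 and 3 there were 49, 17 and 64, without Model 3 there were 258, and the other counts stand in the report. The cause of these shifts was not tested. Model_Swim vs Model (11 genes) gave 115 by DESeq2, 18 by limma on log2(FPKM + 0.1), 34 without a filter, 22 with the block, 5 and 0 with the division terms, and 6 to 327 when 1 library was left out, 327 without Model 3, 68 without Model 2, 17 without Ctrl_Swim 2 and 6 without Model_Swim 2. The interaction (0 genes) gave 213 by DESeq2 and 0 to 248 when 1 library was left out, 248 without Model 3, 62 without Ctrl_Swim 2, 38 without Model 2 and 20 without Model 1. The list medians that changed sign on the FPKM scale, among them those of oxidative phosphorylation, heat shock and interferon-induced genes, were under 0.12 in size, and most other medians within 0.25 of 0 moved by over 1.5 times when 1 library was left out.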
